A study of Rattus norvegicus with 6 samples.

Results

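The miR-29 genes measured in small RNA libraries of rat INS-1 cells were, by their symbols, all copies of miR-29b. Members were taken as every gene whose symbol reads miR-29 followed by a, b or c and an optional copy number, a rule that uses no measured value. It found 3 of 32883 genes, namely Mir29b1 (ENSRNOG00000035463), Mir29b2 (ENSRNOG00000035637) and Mir29b-3 (ENSRNOG00000049256). No gene in the tables carried the symbol Mir29a or Mir29c, and miR-29a and miR-29c were not analysed here, so the values below describe miR-29b and not the whole family. The tables listed 458 miRNA genes by symbol in all.

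The cells, INS-1(832/13)::mCherry, are a beta-cell model grown from a rat insulin-producing tumour and marked with a red fluorescent protein. Each of the 6 libraries came from 1 clonal line grown at 7.5 mM glucose. The Control lines 5-9, 2 and 16 lacked the imprinted Prader-Willi syndrome (PWS) domain on the silent maternal copy, and the PWS lines 3, 19-1 and 19-4 lacked it on both copies. All 6 lines therefore carried the maternal deletion. Lines 2 and 16 and the PWS lines were all derived from line 5-9, lines 19-1 and 19-4 are subclones of the same edited line, and line 3 has a larger deletion at an alternate breakpoint. Each line was sequenced once, so every p-value below measures the spread between related clonal lines.

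MicroRNAs are short RNAs that lower the translation and stability of mRNAs, mostly by pairing of their seed, bases 2 to 8, with the mRNA. The miR-29 family is made from a pair of clusters, in which miR-29b lies beside miR-29a or miR-29c. In beta-cells miR-29 is known for holding down Slc16a1, the monocarboxylate transporter MCT1, a gene that beta-cells normally keep off, and for acting on the exocytosis machinery. In other tissues it is known for restraining collagens and other matrix genes and the DNA methyltransferases.

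The mature sequences are shown because they decide which reads can be told apart, and the seed is in capitals. They come from RefSeq on the GRCr8 build, which held 2 of the 3 member genes. Mir29b-3 was not among them, so it is taken as miR-29b from its symbol alone. Mir29b1 lies on the minus strand of chromosome 4 and Mir29b2 on the plus strand of chromosome 13, and both give the same 3p arm.
miR-29b-3p: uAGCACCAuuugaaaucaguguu
miR-29c-3p: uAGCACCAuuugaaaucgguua
miR-29a-3p: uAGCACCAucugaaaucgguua
The seed AGCACCA was found in 4 of 724 mature rat sequences, and these belonged to Mir29a, Mir29b1, Mir29b2 and Mir29c alone. Counted from the 5′ end of the mature strand, the change from miR-29b to miR-29c was A18G, G21U and U22A, and the change from miR-29c to miR-29a was U10C. miR-29b is also longer, with 23 bases against 22.

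The 2 miR-29b hairpins are shown because they differ outside the 3p arm, which is in capitals.
Mir29b1 hairpin: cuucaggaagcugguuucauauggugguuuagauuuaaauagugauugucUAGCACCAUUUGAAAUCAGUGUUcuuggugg
Mir29b2 hairpin: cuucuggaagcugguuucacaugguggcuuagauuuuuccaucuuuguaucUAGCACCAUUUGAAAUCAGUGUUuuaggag
Both are 81 bases long, and a global alignment placed 67 identical bases opposite each other. The 5p arms can be told apart.
miR-29b-1-5p from Mir29b1: uuucauauggugguuuagauuu
miR-29b-5p from Mir29b2: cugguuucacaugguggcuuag
Reads of the 3p arm hold no base that separates Mir29b1 from Mir29b2, and the tables count reads per gene and not per arm, so the level of a single copy is uncertain. The authors counted reads with HTSeq and its nonunique all setting, which lets a read count for more than 1 gene, and whether the alignments kept 1 place or several for a read that fits several copies is not given in the sources used here. A read counted at more than 1 copy would enter the summed level, its share, its rank and its counting interval more than once. The read counts of the 3 copies were close but not identical in any library. In the RefSeq annotation Mir29b2 lies within the bounds of the long non-coding RNA gene LOC102550527, and Mir29b1 overlaps Mir3587, an miRNA gene on the opposite strand. miR-3587 is complementary to the miR-29b 3p arm over its whole length of 21 bases.
miR-3587: aacacugauuucaaauggugc
Neither Mir3587 nor LOC102550527 was analysed here. In the same way miR-3556a is complementary over its whole length to the 3p arm of miR-29a, and miR-3556b to that of miR-29c. Their genes Mir3556a, Mir3556b and a second copy of Mir3556b were measured and listed at 0 reads in all 6 libraries.

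The libraries held between 7373691 and 16480475 reads, of which miRNA genes took 88.5% to 90.0%. As a check of the labels, the 36 Snord116 genes of the deleted domain summed to 4251 to 10516 reads per Control library and to 2 to 3 reads per PWS library. The beta-cell markers Mir375 and Mir7a1 had mean normalised read counts of 720240 and 1000200 in the Control lines. The mRNA markers of beta-cells that were measured, seen here only as fragments, had Control means from 0 for Mafa to 194 for Ins1. Pdx1 stood at 13.3 and Nkx6-1 at 7.32. None of the 12 beta-cell markers tested of 14 listed was called between the groups by limma-trend, edgeR, DESeq2 or limma-voom, and 2 of them had an unadjusted p under 0.05 by limma-trend and edgeR and 0 by the other tools. Over all 4292 genes tested, limma-trend gave 256 at an unadjusted p under 0.05 and called 55 (1.28%). The 2 beta-cell markers were Ins2, an insulin gene (log2 fold change -2.03, adjusted p = 0.727 by limma-trend), and Chgb, a secretory granule protein (log2 fold change 1.27, adjusted p = 0.831 by limma-trend). Single lines weighed on both, since Ins2 had 0 reads in PWS line 19-4 and Chgb had 1 read in Control line 2. The hormone genes of other islet cells, 4 of 4, were at 0 reads in every library, and 6 of 8 exocrine pancreas markers were too, with the summed exocrine level between 2.10 and 15.4 normalised reads. The mesenchyme markers summed to 14.4 to 39.4 normalised reads per Control library and 35.7 to 51.4 per PWS library, nearly all from Mir143, with the collagens Col1a1 and Col3a1 and the receptor Pdgfrb at 0. Blood and endothelium markers summed to 76.8 to 92.8 and 75.6 to 100.4 normalised reads. For an mRNA gene, 0 reads in small RNA libraries does not show that the gene is off.

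miR-29b was lower on average in the PWS lines than in the Control lines, but the groups overlapped and the difference did not pass the test. The summed normalised read count of the 3 genes was 18647 ± 3775 in Control lines and 14115 ± 3659 in PWS lines (mean ± SD, n = 3 each), a PWS to Control ratio of 0.757. A normalised read count is the number of reads divided by the size factor of its library, the scale on which values are given throughout unless stated. No member was called at an adjusted p under 0.1 by limma-trend, against 1.28% of all genes tested.

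For Mir29b1 the normalised read count was 7120, 4736 and 6571 in Control lines 5-9, 2 and 16 and 5177, 5494 and 3260 in PWS lines 3, 19-1 and 19-4. Control line 2 lay below PWS lines 3 and 19-1, and PWS line 19-4 was lowest of all. The means were 6142 ± 1248 and 4644 ± 1209 (SD, n = 3 each).

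For Mir29b2 the corresponding values were 7367, 4761 and 6631 normalised reads in the Control lines and 5384, 5600 and 3321 in the PWS lines. For Mir29b-3 they were 7269, 4949 and 6536 normalised reads in the Control lines and 5253, 5521 and 3334 in the PWS lines. The order of the 6 lines was the same for all 3 genes, from line 5-9 through 16, 19-1, 3 and 2 down to 19-4.

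**Figure D1:**
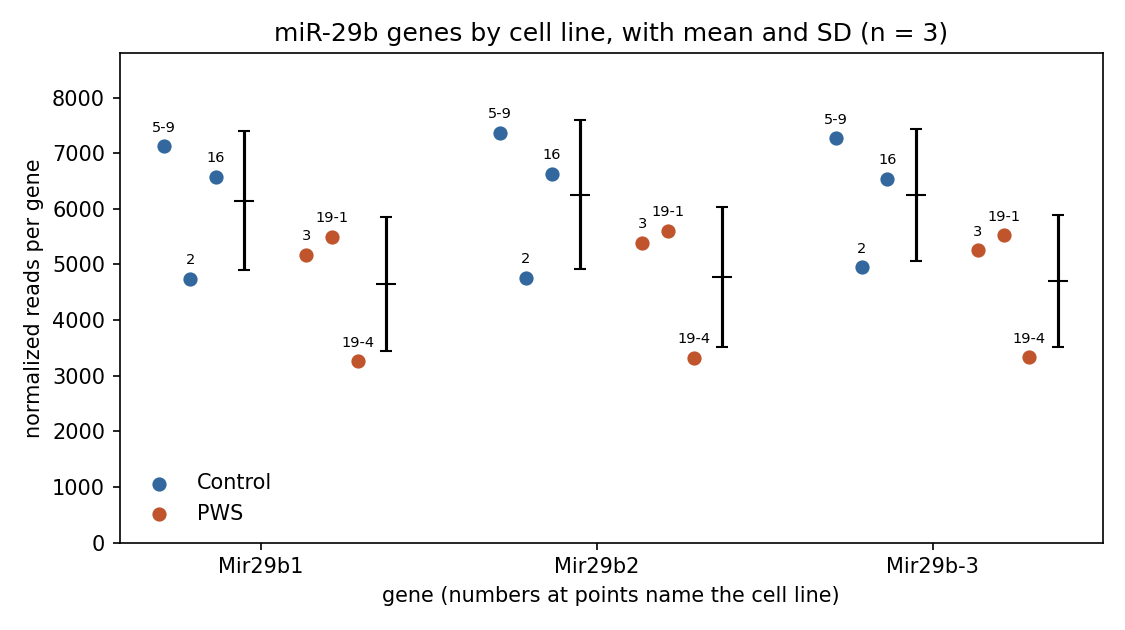
Normalised reads (vertical axis) of Mir29b1, Mir29b2 and Mir29b-3 (horizontal axis) in each Control (blue) and PWS (orange) line, with the group mean and SD (n = 3) as a bar beside the points. For each gene Control line 2 sits below PWS lines 3 and 19-1, and line 19-4 is the lowest point.

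In log2 of normalised reads plus 1, Mir29b1 had a PWS minus Control difference of -0.42 (SE 0.26, 95% interval -0.96 to 0.12, unadjusted p = 0.120, adjusted p = 0.860 by limma-trend with Benjamini-Hochberg adjustment over 4292 genes). For Mir29b2 the difference was -0.41 (95% interval -0.95 to 0.14, adjusted p = 0.860 by limma-trend). For Mir29b-3 it was -0.43 (95% interval -0.96 to 0.11, adjusted p = 0.860 by limma-trend). Mir29b1 and Mir29b2 share their 3p arm, so their results are not independent. Mir29b-3 had a nearly equal read count in every library and the same order of lines, so its result cannot be taken as independent either.

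Limma-trend, edgeR, DESeq2 and limma-voom each called 0 of 3 members, and 0 of 3 had an unadjusted p under 0.05 by any of these tools. Of all 4292 genes tested, 55 (1.28%) were called, all lower in the PWS lines, and of the 259 miRNA genes tested 8 (3.09%) were called, likewise all lower. The paper reports that nearly all small RNAs that differed in its own test are encoded in the deleted domain. How many of the genes called here lie in that domain was not counted, so these shares need not hold for genes outside it. The groups of lines did not overlap for 479 of all genes tested (11.2%) and for 0 of 3 members. The interval of Mir29b1 ran from a PWS to Control ratio of 0.514 to 1.09, so a fall to about that lower bound and a small rise were both compatible with these lines. The within-group SD of the summed miR-29b level was 0.36 in log2 units, somewhat below the size of the difference, with 3 lines a group.

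The direction was the same under 21 of 21 other tools, filters, scalings and left-out lines for each of the 3 genes, and the number called was 0 in each. The filters, the robust fit and the replicate block cannot move the difference itself, which stayed at -0.42 for Mir29b1. Those settings therefore say nothing about its direction. Line 19-4 weighed most in the size. Without it the Mir29b1 difference was -0.18 on the log2 scale (unadjusted p = 0.425, adjusted p = 0.988 by limma-trend). Without Control line 2 it was -0.60 (unadjusted p = 0.050, adjusted p = 0.818 by limma-trend).

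**Figure D2:**
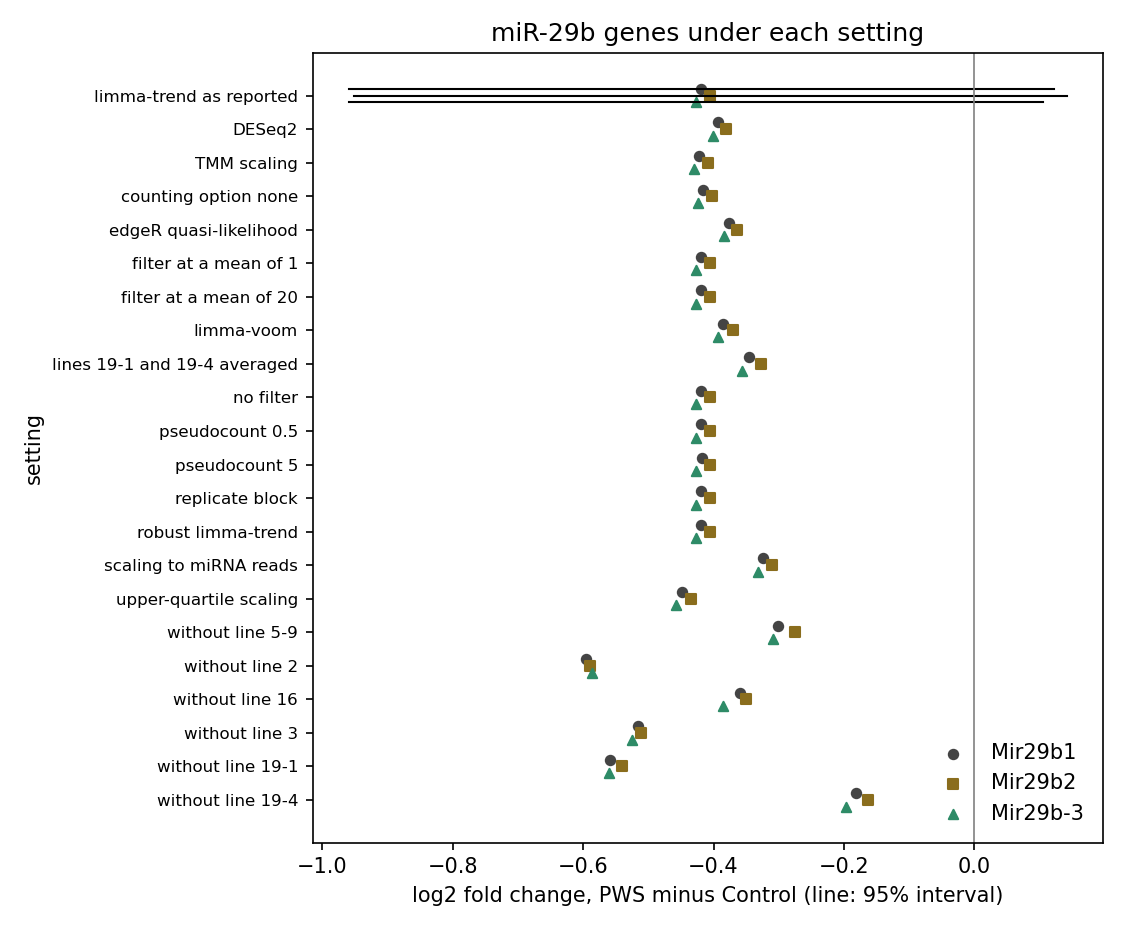
Log2 fold change, PWS minus Control (horizontal axis), of Mir29b1, Mir29b2 and Mir29b-3 under the reported test and each other setting (vertical axis), with the 95% interval of the reported test as a line. Every point lies below 0, the reported intervals cross 0, and the point nearest 0 is Mir29b2 without line 19-4.

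Lines of the same group also differed from each other in miR-29b. The summed miR-29b level was 21756, 14447 and 19738 normalised reads in Control lines 5-9, 2 and 16 and 15814, 16616 and 9915 normalised reads in PWS lines 3, 19-1 and 19-4. Within the PWS group the subclones 19-1 and 19-4 differed by a ratio of 1.68 (95% counting interval 1.63 to 1.72). Within the Control group line 5-9 exceeded its derivative line 2 by a ratio of 1.51 (95% counting interval 1.47 to 1.54).

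The counting error was small, because between 7521 and 26627 reads per library came from miR-29b. All 15 pairs of lines had a counting interval that excluded a ratio of 1, down to the closest pair, lines 19-1 and 3, at 1.05 (95% interval 1.03 to 1.07). The widest ratio was 2.19 (95% interval 2.14 to 2.25), between Control line 5-9 and PWS line 19-4. Counting intervals cover counting error only, and since each line gave 1 library the spread between cultures of the same line was not measured. They also take the size factors as exact, so small ratios depend on the scaling. As a share of all miRNA reads, line 3 lay above line 19-1, at 0.180% against 0.172%, the reverse of their order here. Lines 5-9 and 16 both stood at 0.208% on that scale.

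**Figure D3:**
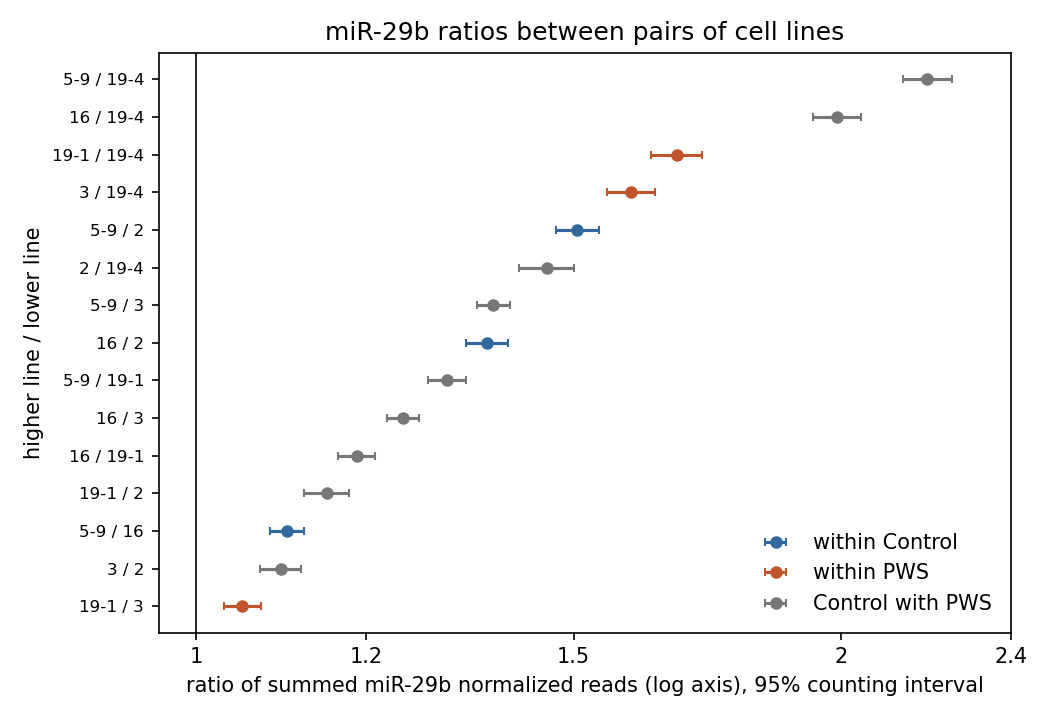
Ratio of the summed miR-29b normalised reads between each pair of lines (horizontal log axis), with 95% counting intervals, for the 15 pairs on the vertical axis. Pairs within the Control group (blue) and within the PWS group (orange) are spread among the pairs that join the groups (grey), and no interval reaches 1.

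The lowest miR-29b levels lay in the libraries with the fewest reads. Lines 2 and 19-4 had 7634142 and 7373691 reads, and the other 4 libraries had 10192806 to 16480475. Line 19-4 was also the lowest line for 116 of 256 other miRNA genes tested. The part of depth in the miR-29b difference was not tested.

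As a share of all miRNA reads, miR-29b made up 0.208%, 0.162% and 0.208% in Control lines 5-9, 2 and 16. The share was 0.180%, 0.172% and 0.115% in PWS lines 3, 19-1 and 19-4. The 95% Wilson interval was 0.159% to 0.165% for line 2 and 0.113% to 0.118% for line 19-4, so line 19-4 was again lowest and line 2 next to it. The mean share was 0.193% ± 0.0263 for Control and 0.156% ± 0.0355 for PWS lines (SD, n = 3 each). Scaled to miRNA reads, the difference for Mir29b1 was -0.32 on the log2 scale (adjusted p = 0.873 by limma-trend).

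Among 458 miRNA genes ordered by their mean normalised reads, Mir29b2, Mir29b-3 and Mir29b1 stood at ranks 73, 74 and 75. Summed, miR-29b would stand at rank 51, between Mir196a with a mean of 16420 normalised reads and Mir872 with 13498. The rank of the sum was 45, 53 and 45 in Control lines 5-9, 2 and 16 and 48, 48 and 55 in PWS lines 3, 19-1 and 19-4. The rank thus ran from 45 in lines 5-9 and 16 to 55 in line 19-4.

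The 3 copies took nearly equal parts of the miR-29b reads. The share of a copy ran from 32.7% for Mir29b1 in line 5-9 to 34.3% for Mir29b-3 in line 2. Of the 18 Wilson intervals, 15 held an equal share of 33.3%, the exceptions being Mir29b1 and Mir29b2 in line 3 and Mir29b-3 in line 2. The number of reads was the same in both deposited tables, which differ in how a read overlapping several genes is counted, for 18 of 18 values.

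Mir29b1 and Mir29b2, which the reference places on different chromosomes, kept a ratio of 0.961 to 0.995 across the 6 libraries. The mean ratio was 0.984 for Control and 0.975 for PWS lines (exact two-sided permutation test, p = 0.5, adjusted p = 0.7 over 2 ratios). Mir29b-3 stood at 0.990 to 1.04 of the mean of the other copies (exact two-sided permutation test, p = 0.7, adjusted p = 0.7). With 3 lines against 3, the smallest p this exact test allows is 0.1. Since Mir29b1 and Mir29b2 share the 3p arm, their ratio cannot be read as the output of the separate loci.

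**Figure D4:**
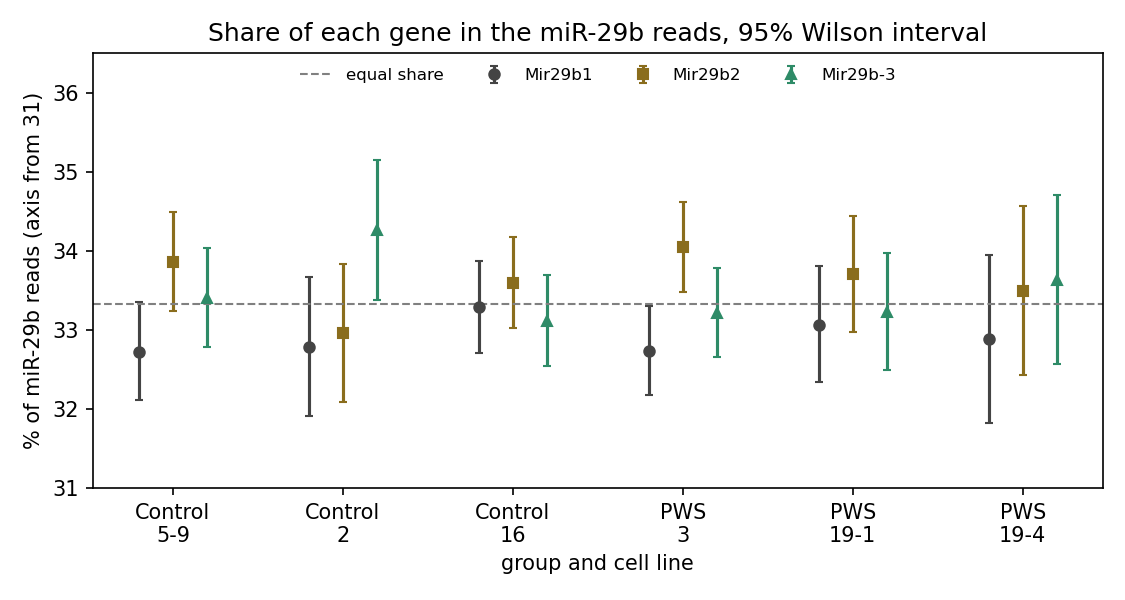
Share of each gene in the miR-29b reads of a library (vertical axis in percent, starting at 31) for the 6 lines (horizontal axis), with 95% Wilson intervals and a dashed line at an equal share of 33.3%. The shares lie between 32.7% and 34.3%, and 15 of 18 intervals include the dashed line.

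The miRNA genes whose pattern over the 6 lines lay nearest to that of summed miR-29b were Mir384, Mir22, Mir503-2, Mir325 and Mir181c. Likeness was the root mean square difference of log2 levels, each centred on its own mean, over 6 libraries and among 256 miRNA genes, of which the median distance was 0.374. Mir384 was nearest at 0.105, Mir22 followed at 0.131, Mir503-2 and Mir325 both stood at 0.135 and Mir181c at 0.138. The flat pattern of a gene with no change would lie at 0.363.

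Mir384 measured 57927, 42968 and 51436 normalised reads in Control lines 5-9, 2 and 16 and 49314, 44315 and 25431 in PWS lines 3, 19-1 and 19-4. Mir22 measured 229, 165 and 218 normalised reads in the Control lines and 213, 197 and 100.2 in the PWS lines. Mir181c measured 3878, 2476 and 3228 normalised reads in the Control lines and 2627, 2212 and 1500.3 in the PWS lines. All 5 were highest in line 5-9 and lowest in line 19-4, as miR-29b was, and none was called (log2 fold changes -0.61 to -0.22). The 5 were chosen for this likeness, and they share libraries and depth with miR-29b.

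**Figure D5:**
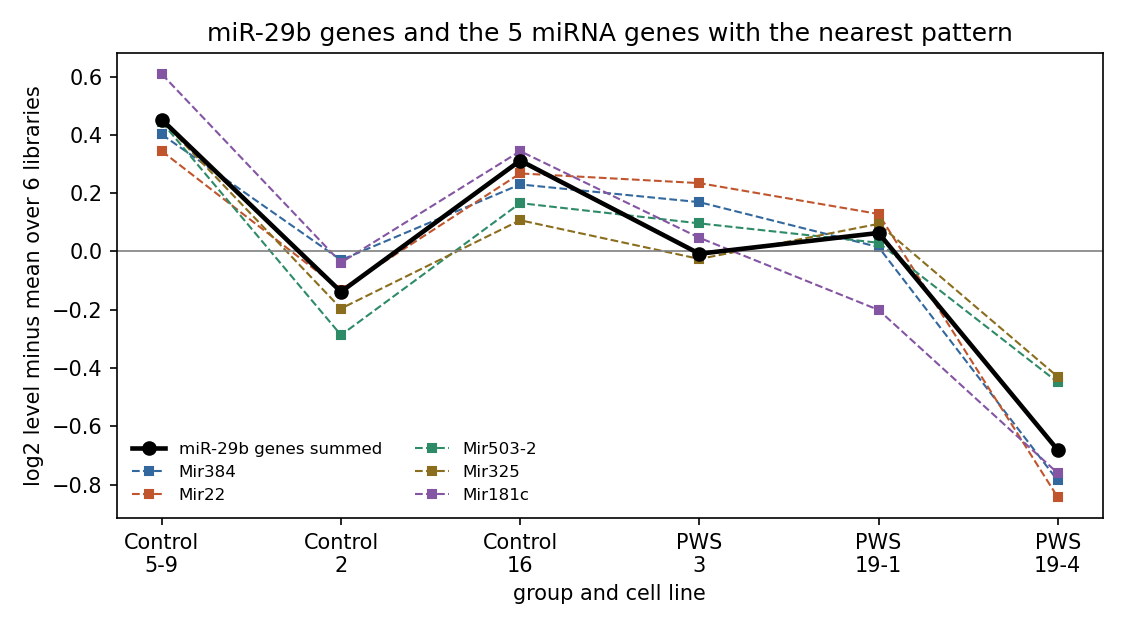
Log2 level minus the mean over the 6 libraries (vertical axis) for summed miR-29b (black) and the 5 miRNA genes nearest to it (dashed), by line (horizontal axis). All 6 curves are highest in Control line 5-9 and lowest in PWS line 19-4.

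Known targets of miR-29 were barely covered, since the libraries were size-selected for RNAs under 200 bases and reads at protein-coding genes come from fragments, which do not measure the mRNA level. Of 39 listed targets, 37 were in the tables, 26 had a read and 9 reached a mean of 5 normalised reads. None of the 9 was called by limma-trend, edgeR, DESeq2 or limma-voom, and 0 had an unadjusted p under 0.05 by any of them. The fold change was above 0 for 5 and below 0 for 4, with a median of 0.06 in log2 units against 0.0048 over all 4292 genes. Groups of lines did not overlap for 3 of the 9, against 11.2% of all genes tested.

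Slc16a1, the transporter MCT1, measured 8.86, 24.8 and 13.1 normalised reads in Control lines 5-9, 2 and 16 and 21.4, 23.1 and 25.0 in PWS lines 3, 19-1 and 19-4. The PWS values were close together, and Control line 2 lay above PWS lines 3 and 19-1. The log2 fold change was 0.66 (95% interval -0.18 to 1.49, adjusted p = 0.860 by limma-trend), from 9 to 36 reads per library. Among the other beta-cell disallowed genes only Oat, a mitochondrial aminotransferase, was tested, with a log2 fold change of 0.22 (adjusted p = 0.961 by limma-trend).

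Stx1a, the syntaxin of the granule fusion machinery, measured 4.92, 7.84 and 0.772 normalised reads in the Control lines and 1.19, 3.15 and 2.64 in the PWS lines. With 1 to 6 reads per library it stayed below the filter. With the filter at a mean of 1 its log2 fold change was -0.50 (95% interval -1.86 to 0.87, adjusted p = 0.963 by limma-trend). Pik3r1, a regulatory subunit of phosphoinositide 3-kinase, had a log2 fold change of 0.49, and Insig1, a regulator of sterol synthesis, one of -0.38. The sign for Insig1 rested on line 19-4, with 1 read, since PWS lines 3 and 19-1, at 13.7 normalised reads each, lay above all Control lines and the group means were 9.35 for Control and 9.54 for PWS. For Pik3r1 the groups did not overlap, at 6.17 to 6.89 normalised reads for Control and 7.91 to 11.6 for PWS lines (adjusted p = 0.887 by limma-trend).

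Dnmt3a, a de novo DNA methyltransferase, measured 9.85, 11.8 and 10.03 normalised reads in Control lines 5-9, 2 and 16 and 4.75, 6.30 and 6.59 in PWS lines 3, 19-1 and 19-4. The groups did not overlap, but the log2 fold change of -0.75 did not pass the test (95% interval -1.61 to 0.10, adjusted p = 0.848 by limma-trend) and rested on 5 to 13 reads per library. Tet2 and Tet3, which oxidise methylated cytosine, had log2 fold changes of 0.14 and 0.06, and Tdg, the glycosylase that removes oxidised bases, one of -0.02. For Tet3 the mean of the normalised reads was instead higher in Control, at 10.6 against 9.85, and Control line 2 was lowest with 3.92 normalised reads.

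Of the growth and survival targets, Ppm1d, a phosphatase that restrains p53 signalling, had a log2 fold change of -0.45 with groups that did not overlap (adjusted p = 0.887 by limma-trend). Grn, which encodes progranulin, had one of 0.32. Of 15 extracellular matrix targets, 6 had a read and 0 reached the filter, with a summed level of 2.10 to 7.84 normalised reads per library. With the filter at a mean of 1, only the integrin subunit gene Itgb1 of this list was tested, with a log2 fold change of -0.06 (95% interval -1.34 to 1.22, adjusted p = 0.991 by limma-trend).

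Of 10 listed genes of the miRNA processing machinery, 5 were tested and 0 were called by the same 4 tools, with 0 at an unadjusted p under 0.05. Dicer1, which cuts the hairpin to the mature duplex, had a log2 fold change of -0.45, and Xpo5, which exports the hairpin from the nucleus, one of 0.59. Ago2, which holds the mature strand, had one of 0.42, and Tarbp2, a partner of Dicer, one of 0.12. Dgcr8, a part of the nuclear processing complex, had one of 0.04, but nearly all of its reads were shared with Mir1306, a miRNA gene within it. At 481 to 740 normalised reads per library with shared reads counted, Dgcr8 kept 1.78 to 9.23 and Mir1306 0 in the table that leaves such reads out.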

How the data were processed

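Small RNA libraries of 3 Control and 3 PWS clonal INS-1 lines were made by the authors with a miRNA kit carrying unique molecular identifiers, with a widened size selection. Per the submitters' processing notes, tools were UMI-tools 1.0.0, cutadapt 1.18, Bowtie2 2.3.4.2, featureCounts, HTSeq 0.11.2 and DESeq2, on Rnor_6.0 with a custom annotation. The deposited signal values are read counts divided by a size factor per library. Multiplying by the factor gave whole reads for 100% of the values above 0 (tolerance 0.001). A further 5 columns per table hold the authors' own fold changes and p-values and were not used.

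Genes with a mean of at least 5 normalised reads were tested with limma-trend 3.58.1 (R 4.3.3) on log2(normalised reads + 1), with genotype only and Benjamini-Hochberg adjustment, at an adjusted p under 0.1. Adding 1 shrinks the ratio of low counts, while a single library near 0 reads can weigh heavily on the fold change, as for Insig1. DESeq2 1.42.0, limma-voom and the quasi-likelihood test of edgeR 4.0.16 were run on the recovered reads as alternatives; others changed the pseudocount, filter, scaling, counting table, threshold, replicate block and lines used. The fit was tested on simulated data. Shares have 95% Wilson intervals. Ratios planned with Mir29a and Mir29c were not run, and the Mir29b-3 ratio was added after seeing the data. Named genes were all members, overlapping genes, listed targets past the filter with Slc16a1 and Stx1a, and the 5 nearest miRNA patterns. The target Itgb1, below the filter, Mir1306, Mir196a, Mir872 and the genes of the other lists were named for context after their values were seen. Members and lists were chosen with earlier results of these data known.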

Additional observations from a re-analysis of the deposited data

How the results depend on the processing

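The 3 miR-29b differences kept their direction and stayed above the threshold, and 0 of 3 members were called, under every alternative run. Filters, the robust fit and the replicate block leave the difference itself unchanged. Adjusted p for Mir29b1 ran from 0.771 to 1.000, and without 1 line its log2 difference lay between -0.60 and -0.18, that of Mir29b2 between -0.59 and -0.16 and that of Mir29b-3 between -0.59 and -0.20. The number of all genes called was 41 to 66 over the alternatives (55 as reported) and 44 to 58 when 1 line was left out. Over all genes tested the median log2 fold change was 0.0048, and 0.10 once scaled to miRNA reads. The log2 difference of the Mir29b-3 ratio, -0.015 as reported, turned to 0.0062 without Control line 2 and lay between -0.031 and 0.0062 over the left-out lines. The cause was not tested.

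Whether replicate numbers pair the lines was not settled. The deviations of same-numbered lines correlated at 0.41, 0.22 and -0.06 over 1087 genes, and lines with different numbers were not compared. With the replicate block, 56 genes and 0 members were called, and the Mir29b1 difference had an adjusted p of 0.771 by limma-trend.

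With 3 related lines a group, and a pair of subclones among them, the intervals of the miR-29b differences reach ratios from about 0.51 to 1.1. Reads per library of the 9 tested targets are too few to follow small differences.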
